A study of Mus musculus with 12 samples.

Results

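Zfp979 (Entrez gene 112422) and Zfp980 (Entrez gene 100041379) are mouse zinc finger genes that were high in embryonic stem cells (ESC), low in neural progenitor cells (NPC) derived from these, and less low in NPC that carried a Jarid1b knockdown. They are 2 of the 18784 named genes on the arrays, each with 1 probe set, the summary of the array probes assigned to a gene. The pair was chosen by measured values, namely the loss from ESC to NPC and the higher level in knockdown than in control NPC, so these differences are given as a description with no test. The difference between knockdown and control in ESC was not used to choose them and was tested. The control ESC arrays also enter the loss from ESC to NPC, however, so this test is not fully separate from the choice.

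The data are 12 Affymetrix mouse gene arrays, 3 in each of 4 groups. The ESC were of the feeder-independent line E14TG2a.4, kept with the cytokine LIF. They were transduced for 16 h with a lentivirus that carried a scrambled shRNA (control) or an shRNA against Jarid1b (knockdown) and put under puromycin 48 h after transduction. Control ESC, knockdown ESC, control NPC and knockdown NPC therefore share the vector and the selection, and the labels name 1 Jarid1b shRNA construct and 1 cell line. Whether the arrays of a group came from separate cultures is not stated, so each p-value reflects array-to-array spread alone, and that spread may be technical. In these bulk samples fewer cells of a type and less RNA per cell cannot be told apart.

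KRAB zinc finger proteins bind DNA through arrays of zinc fingers. Through their KRAB domain they recruit the co-repressor Trim28 and with it the histone methyltransferase Setdb1, which silences chromatin, often at transposable elements. Their genes lie in clusters that arose by repeated duplication, and many are expressed in early embryos and pluripotent cells. Zfp979 is also known as Ssm1b, a strain-specific modifier of transgene methylation. The role of Zfp980 is less well described. Jarid1b, now named Kdm5b, encodes a demethylase of lysine 4 of histone H3.

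Both genes lie on chromosome 4, with 60 other entries of the RefSeq gene table (assembly GRCm38.p6) between them, of which 11 are protein-coding. Their promoters are close copies of each other, which is why the sequences are shown before the values. The RefSeq promoter table (GRCm38.p6) holds a window of 300 bases for each start, 250 before and 50 after it. In a global alignment with free ends, 91.0% of the window of Zfp979 was identical in that of Zfp980. Over 32851 windows, only 12 windows of 12 genes, all on chromosome 4, were at least 70% identical to either one. The lowest alignment score among these was 361.0 and the highest among all other windows was 190.5. Besides the pair these were Rex2, Zfp600, Zfp982, Zfp987, Zfp985, Zfp988, Zfp981, Zfp534, Zfp984 and Gm13212. Of these 10, Zfp600, Zfp982 and Zfp985 were measured here under their symbols.

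The 250 bases before the annotated start are printed for the pair and for these 3 genes, 5′ to 3′ on the strand of the gene. Capitals mark the longest run common to the windows of Zfp979 and Zfp980, 33 bases long, which lies 57 to 25 bases before both starts.
Zfp979 (chr4:147642509-147642758, minus strand): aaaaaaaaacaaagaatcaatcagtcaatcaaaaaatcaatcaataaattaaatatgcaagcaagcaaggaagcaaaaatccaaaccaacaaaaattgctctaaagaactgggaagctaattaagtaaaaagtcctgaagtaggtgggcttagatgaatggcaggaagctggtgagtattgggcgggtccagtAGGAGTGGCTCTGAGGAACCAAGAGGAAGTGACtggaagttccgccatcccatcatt
Zfp980 (chr4:145670447-145670696, plus strand): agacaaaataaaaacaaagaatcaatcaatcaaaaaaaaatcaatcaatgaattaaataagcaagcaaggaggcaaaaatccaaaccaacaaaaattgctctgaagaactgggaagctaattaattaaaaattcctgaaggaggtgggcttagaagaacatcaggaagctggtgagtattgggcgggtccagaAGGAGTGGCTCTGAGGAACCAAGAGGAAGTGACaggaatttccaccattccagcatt
Zfp600 (chr4:146156577-146156826, plus strand): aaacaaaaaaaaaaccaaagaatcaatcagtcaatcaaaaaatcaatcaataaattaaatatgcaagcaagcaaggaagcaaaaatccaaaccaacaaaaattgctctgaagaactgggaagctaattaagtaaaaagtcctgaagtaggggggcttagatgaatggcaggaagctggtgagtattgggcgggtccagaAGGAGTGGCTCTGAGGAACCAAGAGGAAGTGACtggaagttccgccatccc
Zfp982 (chr4:147492167-147492416, plus strand): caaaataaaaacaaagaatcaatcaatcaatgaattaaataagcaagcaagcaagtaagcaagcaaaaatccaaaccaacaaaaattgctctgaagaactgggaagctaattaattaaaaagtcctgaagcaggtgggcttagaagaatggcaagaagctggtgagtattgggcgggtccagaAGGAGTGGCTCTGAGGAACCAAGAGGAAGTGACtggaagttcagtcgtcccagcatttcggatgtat
Zfp985 (chr4:147553027-147553276, plus strand): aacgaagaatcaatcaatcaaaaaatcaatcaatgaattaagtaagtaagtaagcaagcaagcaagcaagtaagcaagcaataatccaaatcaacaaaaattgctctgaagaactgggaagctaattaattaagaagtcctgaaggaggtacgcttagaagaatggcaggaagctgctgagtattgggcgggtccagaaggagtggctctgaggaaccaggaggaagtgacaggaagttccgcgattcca

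The run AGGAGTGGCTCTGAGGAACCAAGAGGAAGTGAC, searched on both strands, was found in 5 of the 32851 windows (0.0152%), those of Zfp979, Zfp980, Zfp600, Rex2 and Zfp982. The closest stretch in the windows of Zfp985, Zfp987 and Zfp534 differed from it by 1 base. A match is a description of these letters, not evidence that a factor binds there. The windows held few CpG dinucleotides, 5 for Zfp979 and 3 for Zfp980, against a median of 7.0 over all windows. Their GC content was 42.3% and 41.0%, against a median of 52.7%.

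The knockdown was visible in its target. Kdm5b (Entrez gene 75605) changed by -1.72 ± 0.11 (SE) on the log2 scale in ESC (limma adjusted p = 1.82e-05) and by -0.76 ± 0.11 in NPC (adjusted p = 0.00524), with no overlap between knockdown and control arrays in either state. Most pluripotency and neural progenitor markers followed the labels. From control ESC to control NPC 23.5% of all genes rose and 25.1% fell. All 25 pluripotency markers fell there, and of 19 neural progenitor markers 18 rose and 1 fell. Markers of other cell types rose as well, 6 of 10 endothelial markers (2 fell) and 8 of 11 mesenchymal markers (2 fell). Across genes, the correlation between arrays of 1 group was 0.992 to 0.997. The lower quartile of an array lay between 5.84 and 6.11.

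In ESC, Zfp979 was expressed at like levels with and without the knockdown. Its deposited log2 values were 9.98, 10.19 and 10.15 in control ESC and 9.94, 9.98 and 9.99 in knockdown ESC. The groups overlapped, and on every ESC array the gene was among the more highly placed genes. The means were 10.11 ± 0.11 and 9.97 ± 0.024 (SD, n = 3), a difference of -0.14 ± 0.12 (SE) that did not pass limma's test (adjusted p = 0.584, 95% interval -0.39 to 0.12). The interval thus spans small changes in either direction.

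Zfp980 lay at 11.73, 12.01 and 12.04 in control ESC and at 11.88, 11.78 and 11.60 in knockdown ESC. The groups overlapped, and the gene stood above 95.7% to 97.5% of genes on these arrays. The means were 11.93 ± 0.17 and 11.75 ± 0.14 (SD, n = 3), a difference of -0.17 ± 0.43 (SE, adjusted p = 0.875, 95% interval -1.11 to 0.77). The SE is wide because the fit pools the spread of all 4 groups, and the control NPC arrays of this gene were far apart. With the 6 ESC arrays alone it was 0.12 (adjusted p = 0.477). Over all genes 5.21% passed the test in this comparison, and of the pair 0 of 2 did.

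In NPC both genes were far lower. Zfp979 lay at 3.70, 4.03 and 3.75 in control NPC, near the lowest values of the arrays (2.76 to 2.91), and lay at 5.98, 5.84 and 5.58 in knockdown NPC. All 3 knockdown arrays were above all 3 control arrays, and all 6 were far below the ESC arrays. The means were 3.82 ± 0.18 and 5.80 ± 0.20 (SD, n = 3), so the knockdown NPC were 1.98 ± 0.12 (SE) higher on the log2 scale, or 3.94-fold. The knockdown values still lay near or below the lower quartile of the arrays, above 19.7% to 25.9% of genes.

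Zfp980 lay at 3.61, 6.15 and 4.57 in control NPC and at 7.84, 7.87 and 7.40 in knockdown NPC. The 3 control arrays were far apart, with replicate 2 the highest, and none of them reached the lowest knockdown array. The means were 4.77 ± 1.3 and 7.70 ± 0.26 (SD, n = 3), a difference of 2.93 ± 0.43 (SE), the largest of all 18784 genes in this comparison, where Zfp979 ranked 13. The SE of 0.43 pools the spread of all 4 groups, and with the 6 NPC arrays alone it was 0.53. Without control NPC replicate 2 the difference was 3.61. In knockdown NPC the gene stood near the middle of the arrays, above 44.5% to 50.3% of genes.

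**Figure D1:**
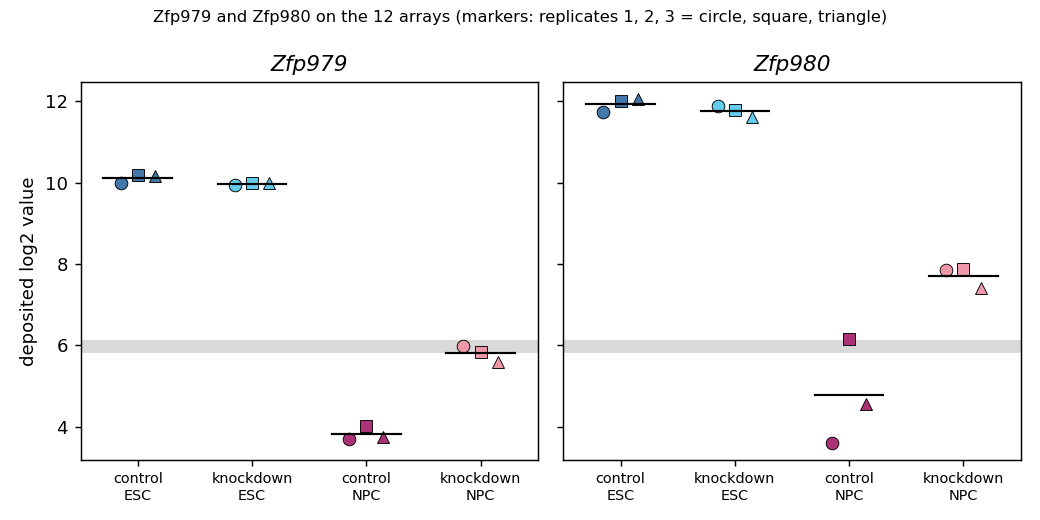
Deposited log2 values (vertical axis) of Zfp979 and Zfp980 in the 4 groups (horizontal axis). Points are arrays (circle, square and triangle for replicates 1, 2 and 3), lines are group means, and the grey band spans the lower quartiles of the arrays (5.84 to 6.11). The ESC groups overlap for both genes, and all knockdown NPC arrays lie above all control NPC arrays.

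The order of the groups was the same for both genes. Control and knockdown ESC stood highest and did not differ beyond their spread, knockdown NPC came next, and control NPC stood lowest. From ESC to NPC, Zfp979 differed by -6.28 ± 0.12 (SE) in control cells and by -4.17 ± 0.12 in knockdown cells. Zfp980 differed by -7.15 ± 0.43 and -4.05 ± 0.43 (SE). In control cells these were the largest (Zfp980) and the sixth largest (Zfp979) falls of all genes, and in knockdown cells they ranked 29 and 24. As antilogs of the group means, control NPC kept 1.29% of the ESC level of Zfp979 and 0.703% of that of Zfp980, and knockdown NPC kept 5.56% and 6.02%. The low end of such shares is rough, because background correction compresses differences near the floor of an array and the deposited values have no detection calls. These comparisons share arrays with each other, so their differences are not independent.

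Over the 12 arrays they correlated at r = 0.985, which mostly reflects the 4 groups they were chosen on. Their deviations from the group means, which the choice did not use, correlated at r = 0.733 over the same 12 arrays and at 0.80 over the 9 arrays outside control NPC. This is a description of values that share arrays, and it did not hold in every group: on the knockdown ESC arrays the order of the genes was opposite, with Zfp979 lowest and Zfp980 highest in replicate 1. Control NPC replicate 2 was the highest control NPC array for both genes, and knockdown NPC replicate 3 the lowest knockdown NPC array. The deposited file holds no probe sequences, so whether probes of one gene also bind RNA of the other, or of other copies in the cluster, was not tested.

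The chromosome neighbours show which genes of the cluster had like values. Among the 25 genes on either side of each of the pair, 5 other zinc finger genes were measured, Zfp600, Zfp982, Zfp985, Zfp991 and Zfp933. From control ESC to control NPC 4 of them fell and 1 rose, while over all genes 25.1% fell and 23.5% rose. In knockdown against control NPC 1 rose and 0 fell, against 0.82% and 0.213% of all genes. Their median difference there was 0.48, against 0.004 for all genes. In ESC 0 of the 5 passed the test between knockdown and control, where 5.21% of all genes did, so 0 calls would match the background.

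Zfp600, whose promoter window was 96.3% identical to that of Zfp979, had the values nearest in kind to the pair. It lay at 7.98, 7.97 and 8.83 in control ESC, 7.78, 7.85 and 7.48 in knockdown ESC, 3.85, 4.56 and 4.23 in control NPC and 5.40, 5.41 and 5.04 in knockdown NPC. All knockdown NPC arrays were above all control NPC arrays, and all knockdown ESC arrays were below all control ESC arrays. In NPC it rose with the knockdown by 1.07 ± 0.23 (SE, adjusted p = 0.0445), and in ESC it differed by -0.55 ± 0.23 (adjusted p = 0.198; with array weights -0.81, adjusted p = 0.0266). The effects in NPC and ESC differed by 1.63 ± 0.32 (SE, adjusted p = 0.0362), a difference called for 1.42% of all genes. The call in NPC is close to the threshold. It was lost with the replicate block (adjusted p = 0.0712), with the 6 NPC arrays alone (0.0792) and without any of 10 of the 12 arrays (adjusted p up to 0.193 over all 12).

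Zfp985, the measured gene next to Zfp979 in chromosome order, lay at 7.77 to 7.98 in control ESC and 7.73 to 7.83 in knockdown ESC. In NPC its values were 3.44, 3.95 and 4.15 in control and 4.79, 4.61 and 4.24 in knockdown cells. The NPC groups did not overlap, but they came close, and the difference of 0.70 ± 0.17 (SE) did not pass the test (adjusted p = 0.0781). It passed without control NPC replicate 3 (adjusted p = 0.0425) or knockdown NPC replicate 3 (0.0375).

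Zfp982, a zinc finger gene studied in stem cells, lay at 8.56 to 8.94 in control ESC and 8.36 to 8.69 in knockdown ESC. Its NPC values were 5.19, 5.08 and 5.53 in control and 5.92, 5.73 and 5.60 in knockdown cells. The NPC groups again stood apart by a small gap, with a difference of 0.48 ± 0.14 (SE, adjusted p = 0.163). From ESC to NPC in control cells Zfp600 fell by 4.05, Zfp985 fell by 4.04 and Zfp982 fell by 3.48 on the log2 scale (adjusted p = 8.93e-09, 6.16e-10 and 4.61e-10).

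Zfp991 and Zfp933 differed from the rest. Zfp991 differed from ESC to NPC in control cells by -2.99 ± 0.12 (SE, adjusted p = 5.7e-10), but its NPC values of 8.15, 8.70 and 8.54 in control and 8.66, 8.43 and 8.50 in knockdown cells overlapped, with a difference of 0.07 ± 0.12 (adjusted p = 0.961, 95% interval -0.20 to 0.33). Zfp933 rose from ESC to NPC by 0.33 ± 0.10 (adjusted p = 0.0156), a call lost with array weights (0.0726), without control ESC replicate 1 (0.0665) or without control NPC replicate 3 (0.0671). It differed by 0.03 ± 0.10 between knockdown and control NPC (adjusted p = 0.985, 95% interval -0.19 to 0.25), and its promoter window was not among the 12 like windows. Zfp991 had no window in the RefSeq promoter table, so its promoter was not compared.

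**Figure D2:**
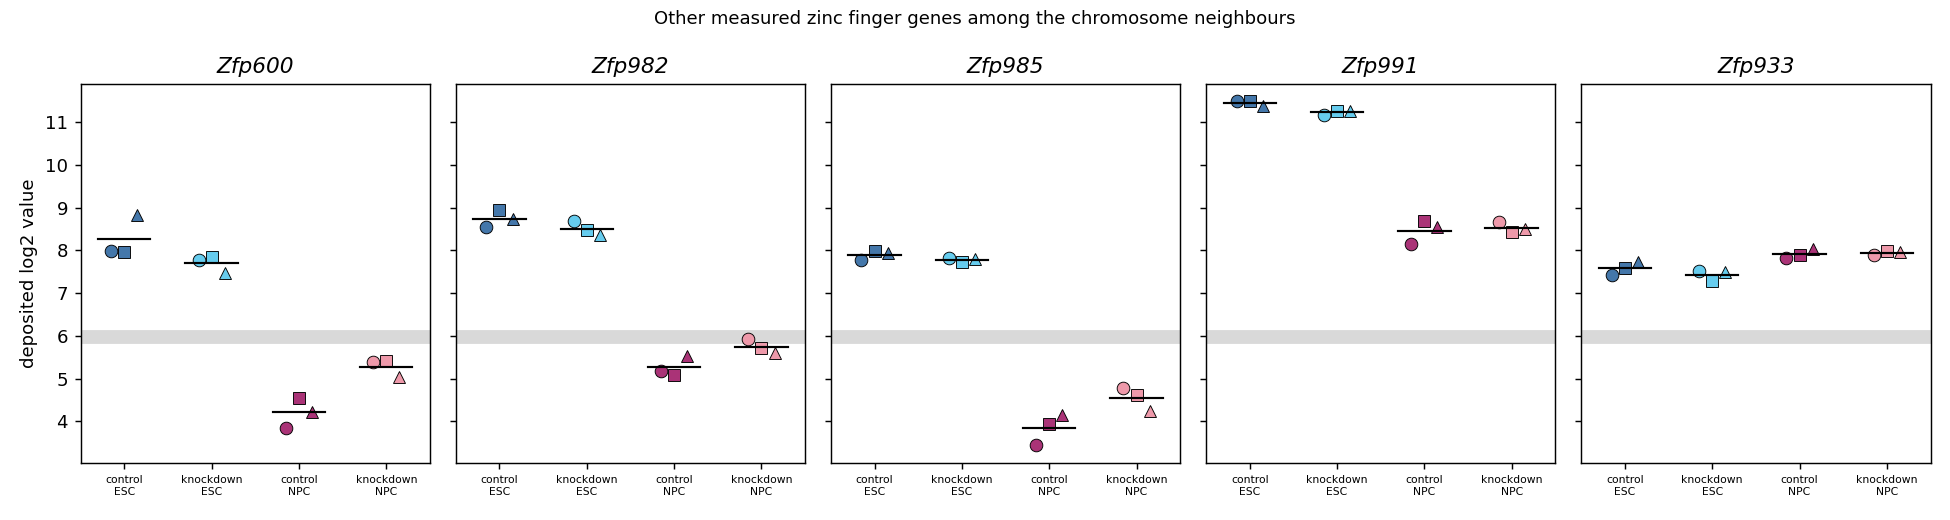
Deposited log2 values (vertical axis) of the 5 other measured zinc finger genes near Zfp979 and Zfp980, in the 4 groups (horizontal axis), with arrays as points by replicate, group means as lines and the lower quartiles of the arrays as a grey band. Zfp600, Zfp982 and Zfp985 have all knockdown NPC arrays above all control NPC arrays, while those of Zfp991 and Zfp933 overlap. Between knockdown and control NPC only Zfp600 passed the test, close to the threshold. How many of all genes have such separated arrays was not counted.

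The 20 other measured neighbours, which are not zinc finger genes by symbol, gave 0 rises and 0 falls between knockdown and control NPC, with a median difference of 0.06. From control ESC to control NPC 5 rose and 6 fell, near the 23.5% and 25.1% of all genes. In knockdown ESC, where 1.84% of all genes rose and 3.37% fell, 0 of the 20 fell and 2 rose, Plod1, a collagen-modifying enzyme (1.00 ± 0.18, adjusted p = 0.0087), and Mad2l2, a translesion synthesis factor (0.46 ± 0.11, SE, adjusted p = 0.035). The smallest p in NPC belonged to Fbxo6 (0.48 ± 0.13, adjusted p = 0.14), Agtrap (0.39 ± 0.11, 0.162), Plod1 (0.50 ± 0.18, 0.313) and Tnfrsf1b (0.28 ± 0.12, SE, 0.42).

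**Figure D3:**
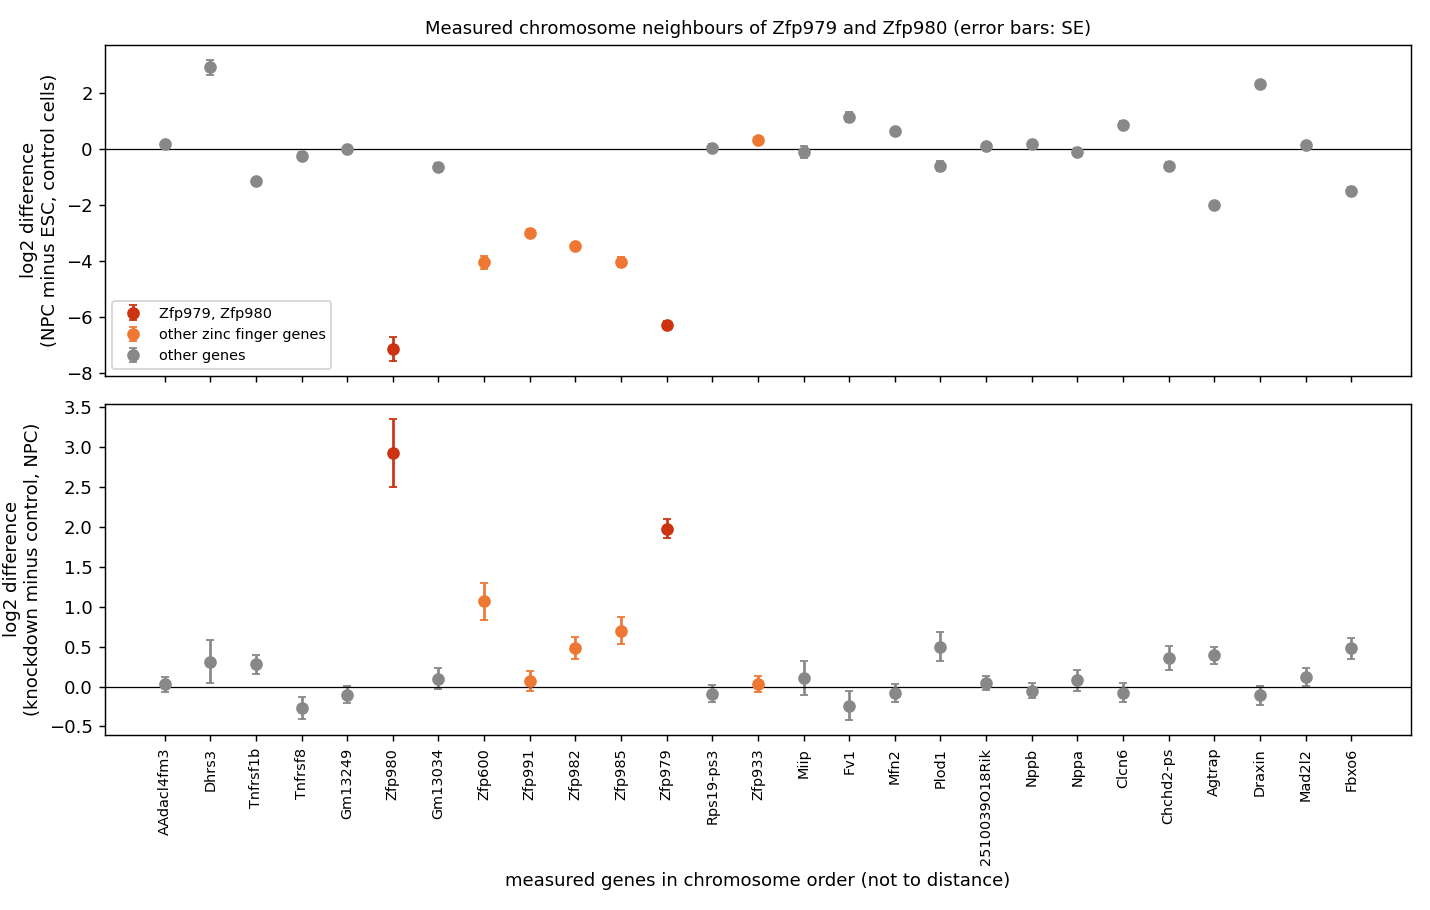
Log2 differences (vertical axes, error bars are SE) of the 27 measured genes around Zfp979 and Zfp980 in chromosome order (horizontal axis, not to distance), from ESC to NPC in control cells (top) and between knockdown and control NPC (bottom). Zfp980, Zfp600, Zfp991, Zfp982, Zfp985 and Zfp979 are the 6 lowest points of the top panel, and Zfp980, Zfp979, Zfp600 and Zfp985 the 4 highest of the bottom panel.

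Other zinc finger genes were called in NPC at a share near that of all genes. Among the 304 other measured genes whose symbol is Zfp and a number, 3 rose in knockdown against control NPC (0.987%, against 0.82% of all genes). In the same comparison 1 of them fell, against 0.213% of all genes, and their median difference was 0.00. The 3 that rose were Zfp600, Zfp296, which acts in pluripotent cells (1.07 ± 0.18, adjusted p = 0.0114), and Zfp750, an epidermal factor (0.89 ± 0.16, adjusted p = 0.0219). Zfp697 fell (-0.45 ± 0.083, SE, adjusted p = 0.0214). Without knockdown NPC replicate 2 the count was 0, and without control NPC replicate 2 or knockdown NPC replicate 1 it was 1. In ESC 3 rose and 7 fell, against 1.84% and 3.37% of all genes, and the smallest p belonged to Zfp869 (1.99-fold lower, adjusted p = 0.00776) and Zfp697 (-0.44 ± 0.083, SE, adjusted p = 0.0117). That count ranged from 1 (without control ESC replicate 3) to 29 (without control ESC replicate 1) when arrays were left out.

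A list of 30 KRAB zinc finger genes studied in stem cells and embryos, of which 20 were measured, had 1 rise and 0 falls in NPC. In ESC it had 0 of either. Over all genes 0.82% rose and 0.213% fell in NPC, and 1.84% rose and 3.37% fell in ESC. Few or no calls among 20 genes would match these shares. The rise was that of Zfp600. Zfp57, which protects imprints, differed by -0.33 ± 0.12 in NPC (SE, adjusted p = 0.322), the opposite sign to the pair, although it too fell from control ESC to control NPC, by 2.37 on the log2 scale. Zfp617 and Zfp113 had the smallest p in ESC (-0.31 ± 0.11, adjusted p = 0.118, and -0.27 ± 0.11, SE, 0.176).

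The partners through which KRAB zinc finger proteins act were not called in either knockdown comparison. Of 21 measured genes of the co-repressor pathway 0 rose and 0 fell in NPC and in ESC, with medians of -0.07 and -0.08. Over all genes 1.03% were called in NPC and 5.21% in ESC, so few or no calls among 21 genes would match the background. In ESC 2 genes of this list passed with the filter on low values, 2 with an intensity trend and robust prior and 3 with array weights. The smallest p in NPC belonged to Morc3 (0.16 ± 0.089, adjusted p = 0.651), the remodeller gene Chd3 (-0.32 ± 0.18, 0.673), the deacetylase gene Hdac1 (-0.14 ± 0.086, 0.737) and Atrx (-0.35 ± 0.29, SE, 0.855). In ESC they were the heterochromatin gene Cbx5 (-0.31 ± 0.085, adjusted p = 0.0511) and Pphln1, a subunit of the HUSH complex (-0.49 ± 0.14, SE, 0.0589). Trim28 itself (chosen after its values were seen) lay at 13.03 to 13.11 in control ESC, 12.88 to 13.00 in knockdown ESC, 12.32 to 12.36 in control NPC and 12.32 to 12.35 in knockdown NPC. From control ESC to control NPC 4 of the 21 rose and 11 fell, against 23.5% and 25.1% of all genes.

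The genes with the most similar pattern were taken by Pearson correlation over the 12 arrays. For Zfp979 they were Klf2 and Ccnb1ip1 (both r = 0.997), Dennd2c (0.997), Utf1 (0.996), Dnmt3l (0.995) and Zfp296 (0.995). For Zfp980 they were Jade1 (0.992), Dppa5a (0.990), Dppa2 (0.989), Dnmt3l (0.987), Pla2g1b (0.986) and Trap1a (0.985). Of 18783 other genes, Zfp980 ranked 81 in likeness to Zfp979, and Zfp979 ranked 8 in likeness to Zfp980. Such correlations follow the 4 group levels and carry no test.

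Of 25 pluripotency markers, 7 rose, 0 fell and 18 did not pass in knockdown against control NPC, where 0.82% of all genes rose and 0.213% fell. Their median difference was 0.28, against 0.004 for all genes. Dnmt3l, a cofactor of DNA methylation, rose by 2.21 ± 0.23 (adjusted p = 0.000791), Klf2 by 0.98 ± 0.11 (0.0011), Dppa2 by 2.26 ± 0.28 (0.00194) and Utf1 by 1.44 ± 0.21 (SE, 0.00559). With the 6 NPC arrays alone 2 passed. The mean level of the list was 7.14, 7.49 and 7.43 on the control NPC arrays and 8.23, 8.12 and 7.67 on the knockdown NPC arrays, against 11.68 to 11.76 on the ESC arrays. Zfp979 and Zfp980 also had replicate 3 as the lowest of the knockdown NPC arrays and replicate 1 as the lowest of the control NPC arrays. The part of undifferentiated cells in the values of the pair was not tested.

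In knockdown NPC the median marker kept 7.14% of its ESC level, against 4.18% in control NPC, while Zfp979 and Zfp980 kept 5.56% and 6.02% against 1.29% and 0.703%. Dppa2 kept 7.25% against 1.43% and Dnmt3l 8.92% against 1.78%. Zfp42, known as Rex1, differed by 0.13 ± 0.16 (adjusted p = 0.935) and Sox2, which neural progenitors also express, by -0.07 ± 0.10 (0.948) between knockdown and control NPC. Sox2 was still at 11.79 to 12.15 in control NPC, against 12.76 to 12.79 in control ESC. Nanog (2.03 ± 0.52, adjusted p = 0.1) and Pou5f1 (0.89 ± 0.25, SE, 0.144) did not pass, although the Nanog difference was as large as that of Zfp979. These 4 were chosen after their values were seen.

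**Figure D4:**
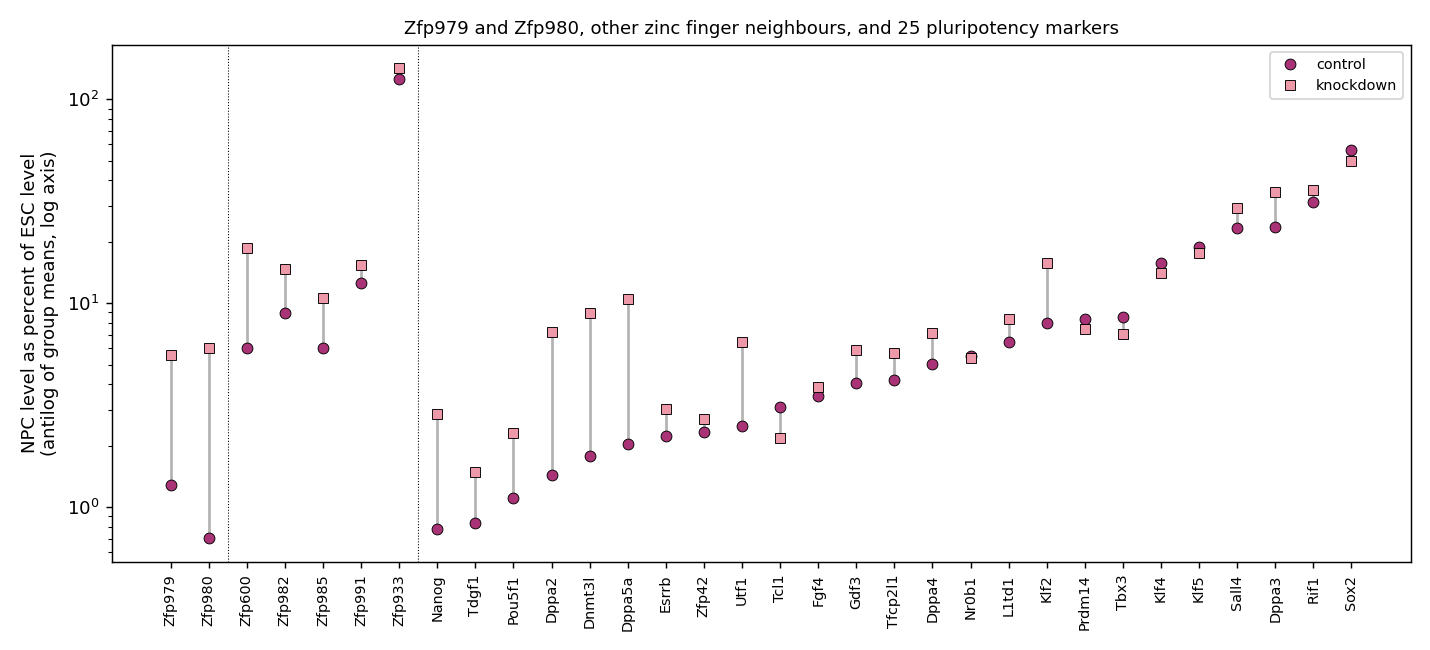
Level in NPC as a percent of the level in ESC (vertical axis, log scale, antilog of group means) in control (circles) and knockdown cells (squares), for Zfp979 and Zfp980, the 5 other zinc finger neighbours and 25 pluripotency markers (horizontal axis). Control NPC kept 1.29% of Zfp979 and 0.703% of Zfp980, and knockdown NPC 5.56% and 6.02%, while markers such as Sox2 and Zfp42 have both symbols close together.

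Other marker lists were examined as well. Over all genes 0.82% rose and 0.213% fell in knockdown against control NPC, so 0 calls in lists this short would match the background. The 9 measured genes of the 2-cell-like state, an early-embryo programme seen in rare ESC, had 0 rises and 0 falls in NPC. Of these 9 genes 8 had a difference above 0, and their median was 0.81, against 0.004 for all genes. The smallest p belonged to Usp17la (1.97 ± 0.45, adjusted p = 0.0637) and Usp17ld (0.81 ± 0.26, SE, 0.222). Endothelial markers had 0 rises and 4 falls of 10 in knockdown NPC, where 0.213% of all genes fell, including Emcn (-2.58 ± 0.37, adjusted p = 0.00524) and Cdh5 (-1.98 ± 0.29, SE, 0.00559), and a mean level of 7.47 to 8.35 in control and 6.69 to 7.09 in knockdown NPC. Mesenchymal markers had 0 rises and 1 fall of 11, with mean levels of 7.33 to 7.75 and 6.91 to 7.12. Neural progenitor (19), neuronal (14) and endoderm markers (10) had 0 calls in NPC, with mean levels of 10.45 to 10.60 and 10.41 to 10.49, 9.65 to 9.86 and 9.58 to 9.69, and 7.27 to 7.62 and 7.18 to 7.26. The part of these shifts in the values of the pair was not tested.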

How the data were processed

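Per the labels' protocols, total RNA from 12 samples was labelled and hybridised to Affymetrix mouse gene arrays. The authors deposited log2 values. Per the submitters' processing notes the authors used affy, RMA and limma. RMA corrects background, quantile-normalizes and summarizes probes. The sources used here give no tool versions and no genome build. Of 21212 probe sets, 18786 had 1 gene symbol, 6 had several and 2420 were not listed in the platform annotation and stay unnamed. Through Entrez IDs 18775 matched RefSeq and 0 symbols changed. The highest-mean probe set was kept, giving 18784 genes.

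A group-means model over all 12 arrays was fitted with limma 3.58.1 in R 4.3.3 (lmFit, contrasts.fit, eBayes, 8 residual and 4.81 prior degrees of freedom). Two-sided p-values were adjusted by Benjamini-Hochberg over 18784 genes, and "rose" or "fell" means an adjusted p under 0.05. The script was tested on simulated data. The number of arrays limits the precision.

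The genes and lists were chosen with earlier results of these data known. Named genes were the pair, Kdm5b, every measured zinc finger neighbour, the 6 most similar genes by correlation, and up to 4 members per list with the smallest p in NPC and 2 in ESC; for the marker lists fewer are named. Zinc finger neighbours were to be taken by protein sequence, but symbols were used because no protein table was used here. The promoter comparison was defined once the data were in hand. The titles number the replicates. Between control ESC and control NPC, deviations from the group means of arrays with 1 number correlated at 0.266, 0.286 and 0.334, which meets the rule for pairing, a reading of the data and not of the design. The values printed come from the fit without the block. The other contrasts each had a pair under 0.1.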

Additional observations from a re-analysis of the deposited data

Results flagged for a closer look

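Among Kdm5b and the members of the gene lists, the knockdown effect in NPC differed from that in ESC for 13 genes. This is by limma's test of the difference itself, which called 1.42% of all genes. The lists share genes and their distinct members were not counted, so the 13 cannot be set against that share. For Zfp600 the effect in NPC minus that in ESC was 1.63 ± 0.32 (SE, adjusted p = 0.0362), from 1.07 ± 0.23 in NPC and -0.55 ± 0.23 in ESC. For Kdm5b, the target of the shRNA, it was 0.96 ± 0.16 (SE, adjusted p = 0.0172), from -0.76 ± 0.11 and -1.72 ± 0.11.

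Of the pluripotency markers 5 passed, Dnmt3l (2.33, adjusted p = 0.00921), Klf2 (0.99, 0.0151), Dppa2 (2.34, 0.0185), Utf1 (1.37, 0.0437) and Dppa5a (2.38, 0.0443). Of the endothelial markers 3 passed, Pecam1 (-1.55, adjusted p = 0.0185), Cdh5 (-2.05, 0.037) and Emcn (-2.53, 0.0397). Part of the Pecam1 difference lay in ESC, with values of 9.29 to 9.52 in control and 10.14 to 10.40 in knockdown ESC. In NPC Pecam1 was lower and its groups overlapped, at 6.56 to 7.24 in control and 5.96 to 6.57 in knockdown cells. The other 3 were the neural progenitor marker Cdh2 (0.87, adjusted p = 0.0239), which fell with the knockdown in ESC, Zfp365 (1.32, 0.0239) and Zfp296 (1.14, 0.0478). For Zfp979 and Zfp980 this difference was 2.11 ± 0.16 and 3.10 ± 0.61 (SE), with no test, since they were chosen on the NPC values.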

How the results depend on the processing

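The differences of Zfp979 and Zfp980 kept their direction in all 162 combinations of comparison and alternative. This count is a description and no support, because most combinations are of comparisons tied to the choice of the pair. Many settings, such as the replicate block or leaving out an array outside the comparison, also cannot change a difference of group means. In ESC the adjusted p ranged from 0.309 to 0.841 for Zfp979 and from 0.477 to 0.968 for Zfp980. Over all alternatives the Zfp979 difference ranged from -0.20 to -0.09 in ESC and the Zfp980 difference from -0.27 to -0.10. In NPC the Zfp980 difference ranged from 2.34 to 3.61, and from ESC to NPC in control cells from -7.84 to -6.57, in both cases farthest from 0 without control NPC replicate 2. The number of genes called in ESC was 979, 2886 with array weights, 497 with the 6 arrays alone and 193 to 1536 with an array left out. In control NPC against control ESC it was 9122, and 8445 to 9025 with an array left out. In knockdown against control NPC it was 194, 29 with the 6 arrays alone and 83 to 247 with an array left out. Zinc finger neighbours called in NPC numbered 1, but 0 with the replicate block, 0 with the 6 arrays alone and 0 to 1 with an array left out. Co-repressor genes called in ESC numbered 0, 2 with the filter or the trend, 3 with array weights and 0 to 1 with an array left out. Other Zfp genes called numbered 4 in NPC, 0 with the 6 arrays alone and 0 to 5 with an array left out, and 10 in ESC, 50 with array weights, 3 with the 6 arrays alone and 1 to 29 with an array left out. Pluripotency markers called numbered 7 in NPC, 2 with the 6 arrays alone and 5 to 10 with an array left out, and 1 in ESC, 2 with array weights and 0 to 2 with an array left out. The cause of these changes was not tested. The replicate block, a pairing read from the data for control cells only, left the Zfp979 and Zfp980 differences at -6.28 ± 0.11 and -7.15 ± 0.39 (SE) and called 9176 genes there. The differences were also -6.28 ± 0.097 and -7.15 ± 0.37, with 8937 genes called, when fitted on the 6 control arrays, an alternative added after seeing the data. Among the results for the pair and the zinc finger neighbours, the replicate block over all 12 arrays ended the Zfp600 call in NPC and no other. Quantile normalization and median centring moved the median of all genes by at most 0.049. Values near the floor of the arrays limit how well the size of the NPC differences is known.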
